A study of Mus musculus with 10 samples.

Results

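The 10 listed genes of antigen presentation by major histocompatibility complex (MHC) class II were read out one by one in the tumors. They were taken by symbol from a list made of the invariant chain Cd74, the chains of the peptide-binding molecules H2-Aa, H2-Ab1 and H2-Eb1, the peptide editors H2-DMa and H2-DMb1, the inhibitors of editing H2-Oa and H2-Ob, the transactivator Ciita and the protease Ctss. Of the 17864 genes in the count table, 9 are on this list, and H2-Aa was not analysed here. H2-Ab1 had at most 12 counts in any tumor and did not pass the filter on low counts, so that 8 of the 10 genes were tested among the 14816 genes that did. No measured value was used to choose them, although earlier results of these data were known when the list was made.

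RNA of whole mammary tumors was sequenced. The tumors grew from 4T1 cells, a mouse line of triple-negative breast cancer from the BALB/c strain, and there were 5 tumors of cells with a control guide RNA (sgCon) and 5 of cells with a guide RNA against Wwtr1, the gene of the Hippo pathway transducer TAZ (sgTaz). Cells of both groups carried Cas9, and no drug was named for either. Per the methods of the study, 100000 4T1 cells were placed in mammary fat pad number 4 of female BALB/c or SCID mice aged 6 to 8 weeks, but the strain of the hosts of the sequenced tumors is not given separately, nor is it stated whether the edited cells were 1 clone or a pool. The guide acts in the tumor cells only, while class II genes were read from tumor, stroma and immune cells together. The comparison asks how these genes differ between tumors with and without the guide against Wwtr1.

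MHC class II molecules display peptides from proteins taken up by a cell to CD4+ T cells. Dendritic cells, B cells and activated macrophages carry them, and interferon gamma can induce them in other cells through the transactivator CIITA. The 2 chains assemble on the invariant chain CD74, proteases such as cathepsin S trim that chain to a short peptide in the groove, DM then exchanges this peptide for others, and DO, which is made mainly in B cells and some dendritic cells, restrains DM.

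The deposited values were counts of reads per gene, and a tumor had between 14753922 and 19595821 of them in the sgCon group and between 12185383 and 18395558 in the sgTaz group. Levels are given as CPM, the counts of a gene relative to the total of the tumor scaled by TMM, and changes are sgTaz against sgCon. The mean level of Wwtr1 was 163 ± 30.2 CPM in the sgCon group and 108 ± 19.2 CPM in the sgTaz group (SD, n = 5 each), with 4 of the 5 sgTaz tumors below every sgCon tumor, a log2 fold change of -0.59 ± 0.15 (SE) and an adjusted p of 0.0960 in edgeR's quasi-likelihood test. Tumors were not alike within a group. SgCon tumor 3 and sgTaz tumor 5 had the highest summed markers of B cells (875 and 201 CPM) and of lymph node stroma (700 and 350 CPM) in their groups, against 0.955 to 13.8 CPM and 1.55 to 7.45 CPM in the other 4 sgTaz tumors. Some results are therefore also given without 1 or both of these tumors, and others may change without them as well.

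The 8 genes tested split by the direction of their fitted change, and none passed the test over the whole table with all 10 tumors. Cd74, H2-Eb1, H2-DMa, H2-DMb1, Ciita and Ctss had fitted log2 fold changes between 0.42 and 0.57, whereas H2-Oa and H2-Ob had -1.28 and -2.81. With the adjustment over all genes tested, edgeR's quasi-likelihood test called 0 of the 8 genes at an adjusted p below 0.05. It called 1 gene of the whole table higher, which is 0.00675% (Tmx4, named because it was the only one), and 0% lower. At an unadjusted p below 0.05, 5 of the 8 were higher and 2 lower, where 9.86% and 11.9% of all genes tested were. Several of the 8 had nearly the same profile over tumors, so that they do not count as separate results. DESeq2 called 1 of the 8, H2-Ob, lower and 0 higher (background 3.47% lower and 3.28% higher), and limma-voom with sample quality weights called Cd74, H2-Eb1 and Ciita higher and H2-Ob lower (background 4.63% higher and 5.8% lower). These shares of all genes are also the background for the calls of DESeq2 and limma-voom in the lists below. The median log2 fold change of the 8 genes was 0.44, and that of all genes tested was -0.02. In RNA of whole tumors, fewer cells of a type and less RNA per cell cannot be told apart.

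**Figure D1:**
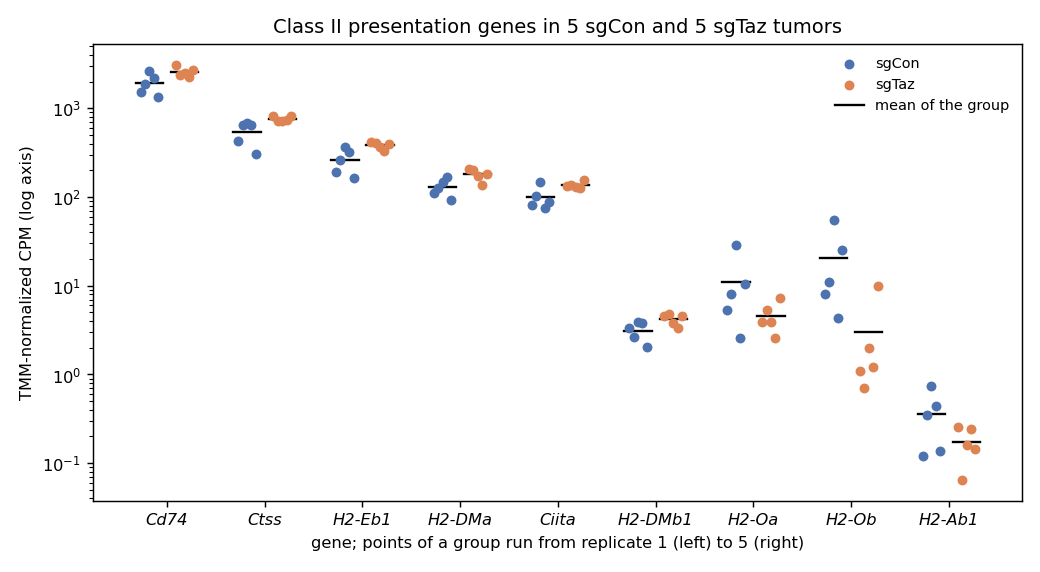
Level of 9 class II presentation genes in each of 5 sgCon (blue) and 5 sgTaz (orange) tumors, in TMM-normalized CPM on a log axis, with each point a tumor and the black line the group mean. The sgTaz points of Ctss all sit above the sgCon points, and 4 of the 5 sgTaz points of H2-Ob sit below all sgCon points.

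Class II genes share a promoter layout with an X box followed by a Y box, which binds NF-Y. The windows from 250 bases before to 50 bases after the start of RefSeq genes were available for 7 of the 10 genes, and 4 of them held AGNAAC, taken here for a part of the X box, followed within 40 bases by the Y box TGATTGG on the strand of the gene. These letters were chosen after the sequences had been read. The 4 stretches are shown because genes with this layout differed in direction, with both motifs in capitals (GRCm38.p6, plus strand, 5′ to 3′, chr17:34305767-34305820, chr17:34153088-34153142, chr17:34092294-34092348 and chr17:34238809-34238860 in this order).
H2-Eb1: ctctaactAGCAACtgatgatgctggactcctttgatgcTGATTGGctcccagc
H2-DMb1: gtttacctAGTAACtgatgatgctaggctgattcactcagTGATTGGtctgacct
H2-Oa: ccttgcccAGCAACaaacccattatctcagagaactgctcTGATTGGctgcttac
H2-Ob: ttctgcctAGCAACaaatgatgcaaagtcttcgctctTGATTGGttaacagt
The distance from the first base of AGNAAC to the first base of the Y box was 31, 32, 32 and 29 bases. Of 32851 RefSeq windows of this length, searched on both strands, 48.1% held AGNAAC, 7.82% held TGATTGG, and 0.335% held the pair in this order and distance. H2-Eb1 and H2-DMb1 had higher fitted levels in sgTaz tumors and H2-Oa and H2-Ob lower ones, so that the pair alone did not sort the genes by direction. A match of letters is a description and not a bound site.

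The invariant chain and the peptide-binding chains come first. Cd74 (ENSMUSG00000024610.15, mm10 chromosome 18, 60803848 to 60812652, plus strand), the chaperone that fills the groove of new class II molecules, was at 1535, 1897, 2636, 2195 and 1343 CPM in sgCon tumors 1 to 5 and at 3107, 2390, 2534, 2260 and 2684 CPM in sgTaz tumors 1 to 5. The lowest sgCon tumors were 5 and 1, the groups overlapped, and 2 sgTaz tumors were above all sgCon tumors. The means were 1921 ± 517 CPM and 2595 ± 327 CPM (SD, n = 5 each), 1.35-fold higher in sgTaz tumors, with a log2 fold change of 0.43 ± 0.17 (SE) and an adjusted p of 0.182 in edgeR's quasi-likelihood test. Over the 19 alternatives its adjusted p was between 0.0358 with limma-voom and 0.336.

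H2-Eb1 (ENSMUSG00000060586.11, chromosome 17, 34305867 to 34316674, plus strand) encodes the beta chain of the I-E molecule. Its levels were 194, 259, 365, 320.0 and 163 CPM in sgCon tumors 1 to 5 and 418, 406, 371, 328 and 402 CPM in sgTaz tumors. All sgTaz tumors except tumor 4 were above the highest sgCon tumor, which was tumor 3. The means were 260.2 ± 84.1 CPM and 385 ± 36.2 CPM, and the log2 fold change was 0.57 ± 0.19 (SE) with an edgeR adjusted p of 0.142 (0.0295 with limma-voom to 0.272 over the alternatives). The change without sgCon tumor 3 and sgTaz tumor 5 was 0.71.

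The gene of the alpha chain that pairs with it stands in the annotation as H2-Ea-ps (chromosome 17, 34341959 to 34344645, minus strand), a polymorphic pseudogene, since the C57BL/6 strain of the reference genome does not transcribe it whereas BALB/c does. H2-Ea-ps was at 433, 557, 663, 610.0 and 305 CPM in sgCon tumors and at 752, 731, 672, 653 and 786 CPM in sgTaz tumors. Again only sgTaz tumor 4 lay within the sgCon range, and the log2 fold change was 0.49 ± 0.18 (SE, edgeR adjusted p = 0.160, 0.0447 to 0.278 over the alternatives). The alpha and beta chains kept a narrow ratio, with 1.82 to 2.24 CPM of H2-Ea-ps per CPM of H2-Eb1 in sgCon tumors and 1.80 to 1.99 in sgTaz tumors. Cd74 stood at 6.86 to 8.21 CPM per CPM of H2-Eb1 in sgCon tumors and at 5.88 to 7.43 in sgTaz tumors, so that these 3 genes had nearly the same profile over tumors.

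The beta chain of the other isotype, I-A, was almost unread. H2-Ab1 (chromosome 17, 34257689 to 34269419, plus strand) had 2, 7, 12, 8 and 2 counts in sgCon tumors and 4, 1, 3, 3 and 2 counts in sgTaz tumors, and several of these are at or under 3 counts, so that no change is given. Of the 2659 stretches of 50 bases in its annotated exons, 0 occur in another annotated gene. The genome used for mapping is that of C57BL/6, whose class II alleles differ from those of BALB/c and of 4T1 cells. The part of these differences in the counts was not tested, and levels of class II chains are for that reason compared between tumors rather than taken as amounts of protein. H2-Eb2, a second beta gene that is little expressed, had 1.62 to 4.24 CPM in sgCon tumors and 1.91 to 4.29 CPM in sgTaz tumors (log2 fold change 0.43 ± 0.33 SE, edgeR adjusted p = 0.461).

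Of the 3 DM genes, H2-DMa and H2-DMb1 had fitted log2 fold changes above 0 and H2-DMb2 below 0. H2-DMa (ENSMUSG00000037649.10, chromosome 17, 34119541 to 34139101, plus strand), the alpha chain of DM, was at 111, 128, 148, 170 and 92.5 CPM in sgCon tumors and at 210.2, 203, 171, 139 and 184 CPM in sgTaz tumors. The 4 sgTaz tumors other than tumor 4 were above every sgCon tumor, with sgTaz tumor 3 just above sgCon tumor 4. Means were 129.9 ± 30.4 CPM and 181 ± 28.4 CPM, and the log2 fold change was 0.48 ± 0.16 (SE) with an edgeR adjusted p of 0.140 (0.0514 to 0.269 over the alternatives). Of its exons, 360 bases lie in exons of Brd2 on the opposite strand, and the strand setting of the counting is not given in the sources used here.

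H2-DMb1 (ENSMUSG00000079547.4, chromosome 17, 34153072 to 34160230, plus strand) and H2-DMb2 (34143307 to 34151555) encode DM beta chains and lie side by side. H2-DMb1 was at 3.30, 2.65, 3.87, 3.77 and 2.05 CPM in sgCon tumors and at 4.52, 4.78, 3.804, 3.32 and 4.51 CPM in sgTaz tumors. The 3 sgTaz tumors 1, 2 and 5 were above all sgCon tumors and the others lay among them, with a log2 fold change of 0.42 ± 0.21 (SE, edgeR adjusted p = 0.270, 0.109 to 0.467 over the alternatives). H2-DMb2 was at 22.3, 30.6, 70.9, 18.7 and 38.5 CPM in sgCon tumors and at 30.6, 36.4, 29.1, 22.3 and 44.8 CPM in sgTaz tumors. Its level was highest in sgCon tumor 3, and in the sgTaz group it was highest in tumor 5. The log2 fold change of H2-DMb2 was -0.15 ± 0.33 (SE, edgeR adjusted p = 0.822), and it changed sign to 0.25 without sgCon tumor 3. The 2 genes share part of their sequence, since 22.7% of the 50-base stretches of H2-DMb1 occur in H2-DMb2 as well. Reads from these stretches may not be told apart, and the levels of H2-DMb1 rest on 30 to 74 counts per tumor.

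The genes of DO, the inhibitor of DM, went the other way. H2-Ob (ENSMUSG00000041538.16, chromosome 17, 34238903 to 34254414, plus strand), its beta chain, was at 8.11, 11.2, 54.8, 4.33 and 25.6 CPM in sgCon tumors and at 1.08, 0.7104, 1.98, 1.21 and 9.90 CPM in sgTaz tumors. Every sgTaz tumor except tumor 5 was below the lowest sgCon tumor, and these levels rest on 11 to 37 counts in sgTaz tumors 1 to 4. The means were 20.8 ± 20.7 CPM and 2.98 ± 3.90 CPM, 7.03-fold lower in sgTaz tumors, with a log2 fold change of -2.81 ± 0.84 (SE) and an edgeR adjusted p of 0.114. The spread within groups was wide, and the adjusted p was between 0.0270 and 0.259 over the alternatives. Without sgTaz tumor 5 the log2 fold change was -4.03 and H2-Ob was called lower (edgeR adjusted p = 0.0436, with 0.868% of all genes called lower and 0.28% higher), and without both sgCon tumor 3 and sgTaz tumor 5 it was -3.25 (edgeR adjusted p = 0.0270, background 0.918%). Without sgCon tumor 3 alone it was -2.04 (edgeR adjusted p = 0.199). SgTaz tumor 5 was the only sgTaz tumor within the sgCon range of H2-Ob. Leaving it out therefore lowers H2-Ob by choice, and the calls without it are not support.

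H2-Oa (ENSMUSG00000024334.9, chromosome 17, 34092340 to 34095234, plus strand), the alpha chain of DO, was at 5.34, 8.16, 28.9, 2.61 and 10.4 CPM in sgCon tumors and at 3.88, 5.30, 3.86, 2.59 and 7.20 CPM in sgTaz tumors. SgCon tumor 3 was far above the others, and the groups overlapped over most of their range. The log2 fold change was -1.28 ± 0.55 (SE, edgeR adjusted p = 0.204, 0.103 to 0.477 over the alternatives), and without sgCon tumor 3 it was -0.52. Without both sgCon tumor 3 and sgTaz tumor 5 it was -0.74 (edgeR adjusted p = 0.338). In its exons, 321 bases lie opposite the antisense gene BC051537, so that part of its counts could belong to the other strand. Between chains, H2-Ob had 1.37 to 2.46 CPM per CPM of H2-Oa in sgCon tumors and 0.134 to 0.514 in sgTaz tumors 1 to 4, with 1.37 in sgTaz tumor 5. These values are not divided by gene length and compare tumors only.

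The DO genes were also set against H2-DMa, the alpha chain of DM. The summed CPM of H2-Oa and H2-Ob per 100 CPM of H2-DMa was 12.1, 15.1, 56.5, 4.08 and 38.9 in sgCon tumors 1 to 5 and 2.36, 2.96, 3.41, 2.74 and 9.32 in sgTaz tumors. SgTaz tumors 1 to 4 were below every sgCon tumor, and sgTaz tumor 5 lay between sgCon tumors 4 and 1. The medians were 15.1 and 2.96, which differ 5.09-fold. This ratio is a description and was not tested. Its direction follows from the changes of its parts given above, and H2-DMb2 is not in it. In RNA of whole tumors these genes may be read from different cells, so that it is not a balance of DO and DM within a cell.

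**Figure D2:**
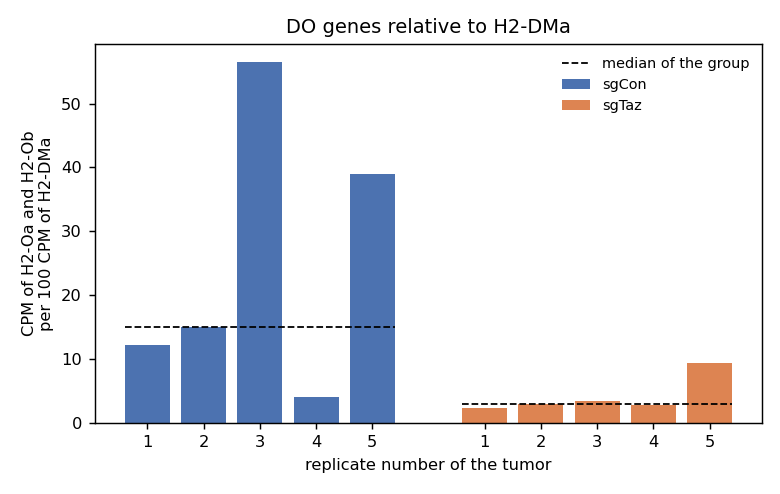
Summed CPM of H2-Oa and H2-Ob per 100 CPM of H2-DMa (linear axis from 0) in each sgCon (blue) and sgTaz (orange) tumor by replicate number, with the group median as a dashed line. The sgCon bars run from 4.08 to 56.5 and the sgTaz bars from 2.36 to 9.32.

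B cell markers were read beside the DO genes. Like H2-Ob, and unlike H2-Oa, their sum was below every sgCon tumor in sgTaz tumors 1 to 4. The sum of lymph node stroma markers had this pattern as well (at most 7.45 CPM against at least 35.2 CPM). So did the sums of T cell markers (at most 76.9 against at least 81.2 CPM) and neutrophil markers (at most 163 against at least 164 CPM). The pattern is therefore not particular to B cells. All 8 B cell markers on the list, among them Ms4a1, Cd79a, Cd79b, Pax5, Cr2, Fcer2a and Blk, had lower fitted levels in sgTaz tumors. Their summed level was 64.6 to 875 CPM in sgCon tumors and 0.955 to 201 CPM in sgTaz tumors. Ms4a1, Cr2, Fcer2a and Blk were at 0 counts in at least 1 sgTaz tumor. The edgeR test called 0 of the 8, and limma-voom called all 8 lower. EdgeR also called all 8 lower without sgTaz tumor 5, and without both sgCon tumor 3 and sgTaz tumor 5. Without sgCon tumor 3 instead, their edgeR adjusted p was between 0.233 and 0.581. SgTaz tumor 5 was set apart by these same markers, so that leaving it out lowers them by choice and is not support. Cd79a, a part of the B cell receptor, had 17.2 to 165 CPM in sgCon tumors and 0.191 to 32.2 CPM in sgTaz tumors. Markers of lymph node stroma, summed, were at 35.2 to 700 CPM in sgCon tumors and at 1.55 to 350 CPM in sgTaz tumors. Of these, Glycam1 of high endothelial venules, Madcam1, Chst4 and Ccl19 were at 0 counts in at least 1 sgTaz tumor, and Ccl21a, a chemokine that draws lymphocytes, was at 10.9 to 319 CPM and at 1.23 to 82.8 CPM. The edgeR test called 0 of the 4 that were tested, and without sgTaz tumor 5, as with limma-voom, 3 were called lower. Without sgCon tumor 3 instead, the edgeR adjusted p of the 4 was between 0.447 and 0.933. The stroma markers also set sgTaz tumor 5 apart, so that the same limit holds for them. The part of these cells in the levels of H2-Ob and H2-Oa was not tested.

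**Figure D3:**
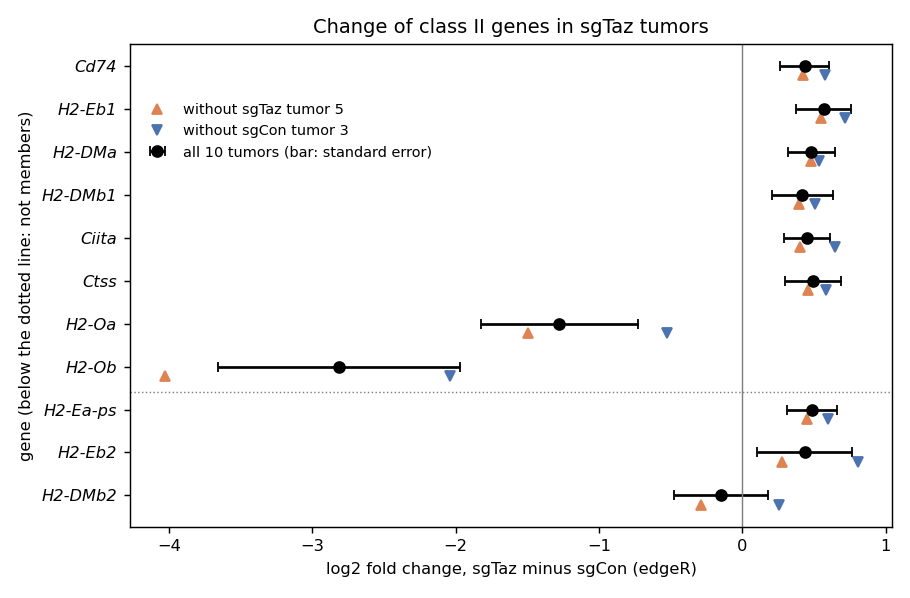
Log2 fold change of class II genes, sgTaz minus sgCon, with all 10 tumors (black, bars are standard errors), without sgTaz tumor 5 (orange) and without sgCon tumor 3 (blue). Genes under the dotted line are related genes outside the list of 10. H2-Ob and H2-Oa lie left of 0 in each fit, the 6 other listed genes lie right of it, and H2-DMb2 changes side.

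Ciita and its inputs were measured next. Ciita (ENSMUSG00000022504.10, chromosome 16, 10480059 to 10528418, plus strand), the master coactivator of class II promoters, was at 82.5, 103, 149, 76.0 and 89.2 CPM in sgCon tumors and at 133, 137, 129, 127 and 156 CPM in sgTaz tumors. SgCon tumor 3 alone reached the sgTaz range, and the other 4 sgCon tumors were below all sgTaz tumors. The means were 99.9 ± 29.2 CPM and 136 ± 11.4 CPM, and the log2 fold change was 0.45 ± 0.16 (SE) with an edgeR adjusted p of 0.155 (0.0259 to 0.301 over the alternatives). Without sgCon tumor 3 and sgTaz tumor 5, Ciita was higher by 0.60 and passed the test (edgeR adjusted p = 0.0259, where 0.344% of all genes were called higher). It did not pass without sgCon tumor 3 alone (0.64, edgeR adjusted p = 0.0552) or without sgTaz tumor 5 alone (0.40, edgeR adjusted p = 0.229). Leaving out sgCon tumor 3, the highest of its group, widens the difference by choice and is not support. Exons of Ciita share 329 bases with Dexi on the opposite strand.

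Of the 7 genes that lead from interferon gamma to Ciita, edgeR called 0, DESeq2 and limma-voom each called 1 higher, and 5 had a log2 fold change above 0. Ifng, the gene of interferon gamma itself, was low, with 1.51 to 3.06 CPM in sgCon tumors and 2.75 to 5.17 CPM in sgTaz tumors (0.78 ± 0.26 SE, edgeR adjusted p = 0.134). Irf1, an interferon-induced factor that acts on the Ciita promoter, had 325 to 390 CPM and 367 to 416 CPM (0.15 ± 0.07 SE, edgeR adjusted p = 0.233).

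The proteins that bind class II promoters together with CIITA were another group. Of 7 genes of the RFX, CREB and NF-Y factors, 5 had a log2 fold change below 0 and edgeR called 0. Rfxank, a subunit of RFX, was at 12.2, 11.2, 16.8, 13.7 and 12.3 CPM in sgCon tumors and at 10.8, 10.01, 10.6, 10.8 and 10.3 CPM in sgTaz tumors. Its groups did not overlap, as held for 2.13% of all genes in this direction, but the difference was small (log2 fold change -0.34 ± 0.13 SE, edgeR adjusted p = 0.164), and 1341 of its exon bases are shared with Nr2c2ap on the opposite strand. Nfyb and Nfya, subunits of the factor that binds the Y box, had -0.18 and 0.08 (edgeR adjusted p = 0.307 and 0.609).

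Ctss (ENSMUSG00000038642.10, chromosome 3, 95526786 to 95556403, plus strand) encodes cathepsin S, the protease that makes the last cuts in the invariant chain. It was at 433, 651, 683, 648 and 303 CPM in sgCon tumors and at 811, 729, 713, 733 and 830.5 CPM in sgTaz tumors. Every sgTaz tumor was above every sgCon tumor, which held for Ctss alone among the 8 genes tested and for 2.44% of all genes tested, and sgCon tumors 1 and 5 were the lowest. The means were 543 ± 167 CPM and 763 ± 53.4 CPM, 1.40-fold higher in sgTaz tumors, with a log2 fold change of 0.49 ± 0.19 (SE) and an edgeR adjusted p of 0.183 (0.0631 to 0.307 over the alternatives).

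Other genes of lysosomal processing had smaller differences. Of 8, 7 had a log2 fold change above 0 and edgeR called 0. Sppl2a, the membrane protease that clears the stub of CD74, was at 166 to 210 CPM in sgCon tumors and at 213 to 226 CPM in sgTaz tumors, without overlap, and DESeq2 called it higher (0.25 ± 0.07 SE, adjusted p = 0.110 in edgeR and 0.0263 in DESeq2, 0.0263 to 0.251 over the alternatives). Ctsb and Ctsz, cathepsins with broader roles, had 0.32 and 0.18 (edgeR adjusted p = 0.190 and 0.398). Exons of Ifng, Irf1, Ctsb and Ctsz also overlap another annotated gene, so that reads of both may be mixed.

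Past the endosome the genes had no common direction. Of 5 genes of surface turnover, 2 had a log2 fold change above 0 and edgeR called 0, with 0.19 for March8, a ubiquitin ligase of the MARCH family, -0.19 for the tetraspanin Cd63 and -0.11 for Ap1m1, an adaptor of vesicle sorting (edgeR adjusted p = 0.341, 0.423 and 0.625). Of 7 receptors and ligands of class II or CD74, 5 had a log2 fold change below 0. Cd4, the T cell coreceptor for class II, was at 32.1, 31.3, 160.5, 11.99 and 64.2 CPM in sgCon tumors and at 7.83, 4.91, 9.70, 6.56 and 34.0 CPM in sgTaz tumors. SgTaz tumors 1 to 4 were below every sgCon tumor and sgTaz tumor 5 was the exception, as for H2-Ob. The log2 fold change of Cd4 was -2.26 ± 0.71 (SE), with an adjusted p of 0.1246 in edgeR and 0.0476 in DESeq2. Over the alternatives its adjusted p was between 0.0403, in edgeR without sgCon tumor 3 and sgTaz tumor 5, and 0.272. Cxcr2 and Cxcr4, chemokine receptors that can pair with CD74, had -0.96 and -0.60 (edgeR adjusted p = 0.153 and 0.343). Over the 37 pathway genes tested, 20 had a log2 fold change above 0 and 17 below, and DESeq2 called 2 higher and 1 lower. Of all genes, DESeq2 called 3.28% higher and 3.47% lower, so that these few calls do not set the pathway apart.

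**Figure D4:**
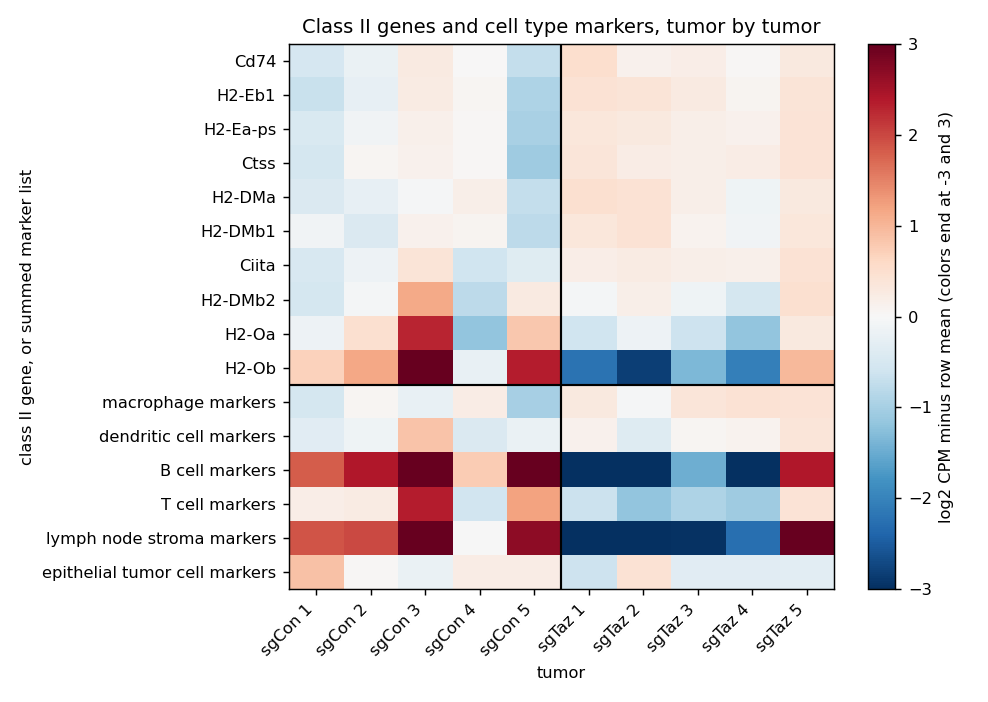
Log2 CPM of class II genes (upper rows) and of summed cell type markers (lower rows) in each tumor, minus the row mean, with red above and blue below the mean and colors ending at -3 and 3. H2-Ob and the B cell and lymph node stroma markers are dark red in sgCon tumor 3 and blue in sgTaz tumors 1 to 4, while Cd74, H2-Eb1 and Ctss stay pale, lowest in sgCon tumors 1 and 5.

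Levels per kilobase of exon (RPKM) give an order of the genes of the pathway by reads counted. In sgCon tumors Cd74 stood first at 1144 ± 308 RPKM (SD, n = 5), above H2-Ea-ps at 496 ± 139, Ctss at 400.2 ± 123, H2-Eb1 at 134 ± 43.2 and H2-DMa at 37.7 ± 8.81 RPKM. Below these were H2-DMb2 at 20.7 ± 11.9, Ciita at 10.5 ± 3.06, H2-Oa at 7.88 ± 7.39, H2-Ob at 3.87 ± 3.84 and H2-DMb1 at 1.86 ± 0.458 RPKM. The ranges of H2-Ea-ps and Ctss overlapped, as did those of each neighboring pair from H2-DMa down to H2-Eb2, so that the order among these is not separated by the spread between tumors. In sgTaz tumors the order was the same for the first 8, and H2-Ob ranked behind H2-DMb1 and H2-Eb2 at 0.553 ± 0.724 RPKM. H2-Ab1 was last in both groups, at 0.140 and 0.0676 RPKM.

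The profiles over the 10 tumors split the list. Likeness was measured as the root mean square difference between log2 CPM values, each gene centered on its mean, and it describes tumors without a test. Seen from Cd74, H2-Eb1 was at 0.128, H2-DMa at 0.154, Ctss at 0.168, H2-DMb1 at 0.197 and Ciita at 0.251, whereas H2-Oa was at 1.07 and H2-Ob at 2.08. Among the 14816 genes tested the 5 nearest to Cd74 were Gm2a, Gm44751, Pik3r6, H2-Eb1 and H2-Ea-ps (0.111 to 0.132), and the 5 nearest to Ctss were H2-Ea-ps, Cd200r4, C1rl, Gm44751 and Rab3il1 (0.0723 to 0.127). Class II chains were thus close to both.

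Ciita had other neighbors, Gbp5, Sfrp1, Ntng2, Cd274 and Bmp2k (0.113 to 0.156). Gbp5 and Cd274, the gene of PD-L1, are known to be induced by interferon gamma. Among the 5 genes nearest to H2-Ob were Satb1, St8sia1, Fcrla and Rasgrp2 (0.279 to 0.344), of which Rasgrp2 encodes an exchange factor for the small GTPase Rap. H2-Oa was at 1.25 from H2-Ob. The measure also counts differences in the size of the changes, so that genes that vary little lie near each other. All these values share the libraries and their depth.

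Markers of other cells that carry class II were read beside these genes. The 8 macrophage markers all had a log2 fold change above 0, of which edgeR called 0, DESeq2 called 3 higher (Adgre1, Csf1r and Mrc1) and limma-voom 4 (the same and Cd68), and their sum was 778 to 1831 CPM in sgCon tumors and 1514 to 2124 CPM in sgTaz tumors, with none at 0 counts. The lowest sums were those of sgCon tumors 5 and 1, which were also lowest for Cd74, H2-Eb1, Ctss and H2-DMa. This did not hold for H2-DMb1, lowest in sgCon tumors 5 and 2, or for Ciita, lowest in sgCon tumors 4 and 1. SgCon tumor 4 had the highest macrophage sum of its group. C1qa, a complement subunit made by macrophages, had 394 ± 146 CPM and 492 ± 48.7 CPM, and Mrc1, the mannose receptor, had 187 ± 80.7 CPM and 334 ± 66.3 CPM (SD, n = 5). Cd74 relative to the macrophage receptor gene Csf1r was at 8.10 to 13.1 CPM per CPM in sgCon tumors and at 6.12 to 11.5 in sgTaz tumors, with medians of 9.83 and 8.25. The part of macrophages in the levels of class II genes was not tested.

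Of the 8 dendritic cell markers, 5 had a log2 fold change above 0, edgeR called 0, and DESeq2 and limma-voom each called Itgax higher. Their sum was 100.1 to 245 CPM in sgCon tumors and 105 to 174 CPM in sgTaz tumors. Itgax, which macrophages express as well, was higher in every sgTaz tumor than in any sgCon tumor (0.61 ± 0.15 SE, edgeR adjusted p = 0.0960), while Ccr7, the receptor of mature dendritic and naive T cells, had -1.75 (edgeR adjusted p = 0.175). All 6 T cell markers had log2 fold changes below 0 (-1.72 for the kinase Lck and -1.07 for Cd3g), and summed to 81.2 to 622 CPM in sgCon tumors and 52.9 to 161 CPM in sgTaz tumors. With all tumors edgeR called 0 of the 6, DESeq2 and limma-voom each called 3 lower (Cd3d, Cd2 and Lck), and edgeR without sgCon tumor 3 and sgTaz tumor 5 called 2 lower (Cd3d and Lck).

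The remaining lists describe the rest of the tissue. Summed neutrophil markers, mostly S100a8 and S100a9, were at 164 to 666 CPM in sgCon tumors and at 65.0 to 246 CPM in sgTaz tumors. Epithelial markers of the tumor cells, led by Krt8 and Krt18, summed to 1888 to 3964 CPM and 1409 to 2923 CPM, and all 6 had log2 fold changes below 0. Fibroblast markers, with Col1a1 and Pdgfra, summed to 694 to 1869 CPM and 758 to 1538 CPM, and adipocyte markers, with Fabp4 and Cidec, to 50.9 to 93.7 CPM and 35.3 to 176 CPM. The edgeR test called 0 genes of each of these lists. DESeq2 called 2 epithelial markers lower (Krt19 and Krt14) and Pdgfra higher, and limma-voom called 3 neutrophil markers (S100a8, S100a9 and Cxcr2) and 2 epithelial markers (Krt14 and Cdh1) lower and Pdgfra higher. Their part in the class II values was not tested.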

How the data were processed

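Per the labels and the methods of the study, the authors mapped reads of each tumor to mm10 with STAR and counted them per gene with featureCounts from Subread, and the deposited values are these raw counts, without normalization. The versions of the tools and the strand setting are not given in the sources used here. The table holds 17864 genes, 17860 of them named by GENCODE M21, and 5 further columns that were not used. The methods name another GENCODE version for the counting, whereas gene names, exon lengths and exon overlaps here come from M21. For 17673 genes the version of the gene id matched M21 exactly.

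Counts were fitted in R 4.3.3 with edgeR 4.0.16 (TMM, filterByExpr by group, quasi-likelihood test, Benjamini-Hochberg over 14816 genes, adjusted p below 0.05), with log2 CPM from a prior count of 2. The alternatives were DESeq2 1.42.0, limma-voom 3.58.1 with sample quality weights, other scaling, filters and dispersion, a replicate block and leaving out each tumor. The fits were tested on simulated data. RPKM used the exon length of GENCODE M21, and promoter windows came from RefSeq on GRCm38.p6. Figures were drawn with matplotlib 3.10.9 in Python 3.11.15. The fit without sgCon tumor 3 and sgTaz tumor 5 was chosen after seeing the data.

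Groups come from the sample labels. Tumors of a group are separate samples there, and nothing says that they came from separate mice, so that p-values measure the spread between these samples. In none of the 20 pairs of tumors of the same group did counts agree within counting noise. The members, the 6 pathway lists and the 9 marker lists were chosen with earlier results of these data known. The text names all members, Wwtr1, the 3 pathway genes of smallest p in each list and those called, 2 to 4 markers per list (the highest in level and those without overlap), and the 5 nearest genes of Cd74, H2-Ob, Ciita and Ctss. Other markers and Csf1r are named for their lists. A few genes that this rule picks are not reported here. A count of 3 per tumor was taken as the floor, which covers counting error only.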

Additional observations from a re-analysis of the deposited data

Results flagged for a closer look

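In the 40 sets of 5 tumors examined for a tumor far from the rest of its group, 5 met Dixon's criterion on log2 CPM, where chance alone gives about 2 (1 in 20). H2-Eb2 was at 4.24 CPM in sgCon tumor 3 and at 1.62 to 1.85 CPM in the other sgCon tumors. The summed dendritic cell markers were at 245 CPM in sgCon tumor 3 and at 100.1 to 124 CPM in the others. Lymph node stroma markers summed to 350 CPM in sgTaz tumor 5 and to 1.55 to 7.45 CPM in the other sgTaz tumors. Epithelial tumor cell markers summed to 2923 CPM in sgTaz tumor 2 and to 1409 to 1740 CPM in the others. Fibroblast markers summed to 758 CPM in sgTaz tumor 1 and to 1362 to 1538 CPM in the others. None of the 8 class II members tested met the criterion on this scale. On the CPM scale, tried after seeing the data, 9 sets met it, those 5 included, and 1 of the others was a member, H2-Ob, with 9.90 CPM in sgTaz tumor 5 and 0.7104 to 1.98 CPM in the other sgTaz tumors.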

How the results depend on the processing

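The 8 members gave 152 values under 19 alternatives, of which 0 changed sign, 144 stayed on their side of the threshold and 8 passed it (1 for Cd74, 1 for H2-Eb1, 4 for H2-Ob and 2 for Ciita). Members called higher were 0 with all tumors, 3 with limma-voom and 1 without sgCon tumor 3 and sgTaz tumor 5. Members called lower were 0, and 1 with DESeq2, with limma-voom and without those 2 tumors, and 0 to 1 with 1 tumor left out (1 without sgTaz tumor 5). A prior count of 0.5 in place of 2 changed the sign of no difference in log2 CPM. The whole table moved far more. Genes called higher were 1 in edgeR, 527 with DESeq2, 686 with limma-voom, 0 without a filter, 4 with at least 10 counts in every tumor, 51 without the 2 tumors and 0 to 42 with 1 tumor left out (40 without sgTaz tumor 2, 42 without sgTaz tumor 5). Genes called lower were 0, 558, 860, 0, 1, 136 and 0 to 130 in the same order (35 without sgTaz tumor 2). The cause was not tested. With a replicate block 0 genes were called higher and 0 lower, and no member was called (adjusted p of 0.148 to 0.427). Replicate numbers did not pair the tumors (r of -0.24 to 0.22 for equal numbers, and 1 of 10 tumors correlated best with its own number). The log2 fold change of H2-Ob had a larger SE (0.84) than those of Cd74 (0.17) and Ctss (0.19). H2-Ob had 11 to 37 counts in 4 sgTaz tumors, and its levels were widely spread within both groups. H2-Ab1 is below what this depth can compare.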
